A study of Homo sapiens with 12 samples.

Results

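The genes described here encode the DEAD-box and DEAH-box helicases, taken as every event whose gene symbol is DDX or DHX followed by a number and at most 1 letter, with a mean of at least 10 reads (inclusion plus skipping) per library. That rule gave 969 skipped exon events and 118 retained intron events in 44 genes, of 161042 skipped exon and 15207 retained intron events listed in all. Before the depth requirement there were 1128 and 143 such events, and at its edge a DDX12P exon with a mean of 10 reads was in while a DDX21 exon with 9.17 reads was out. A Y-linked member was left out. RNA-seq was performed in HEK293A-TOA cells, a line derived from human embryonic kidney cells, and all 12 libraries came from cells treated with 1 μM TG (Thiamet-G, an inhibitor of the O-GlcNAcase OGA) for 6 hr. The 4 groups of 3 biological replicates were siSFSWAP (40 nM siRNA against the splicing regulator SFSWAP), siNT (non-target siRNA), siSFSWAP/siUPF1 (the same with 30 nM siRNA against UPF1) and siNT/siUPF1 (non-target siRNA with the UPF1 siRNA). All cells were harvested 5 days after transfection. UPF1 is the central helicase of nonsense-mediated decay (NMD), so its knockdown allows transcripts with early stop codons to be seen.

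DEAD-box and DEAH-box proteins use ATP to pry apart short RNA duplexes or to strip proteins from RNA, and are named after the amino acid letters of a conserved ATPase motif. Several of them drive the rearrangements of the spliceosome: DDX46 and DDX39B act while it assembles, DDX23 helps hand the donor splice site over to its catalytic partner RNA, and DHX16, DHX38, DHX8 and DHX15 power activation, the second catalytic step, release of the mRNA and disassembly. Others build ribosomes (DDX27, DDX31, DDX49, DDX55), export or decay mRNA (DDX19B, DDX6, DHX34), or unwind DNA (DDX11). Splicing helicases are thus both part of the splicing machinery and, as here, spliced from pre-mRNAs of their own.

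The exons and introns that carry the main changes are shown first. In each exon line, 12 intron bases precede the exon and 8 follow it, and capitals mark the AG and GT at the splice sites. In each intron line, capitals mark the GT and AG at its ends. Sequences were read from GRCh38, 5′ to 3′ on the strand of the gene, and exon and intron numbers are those of the MANE transcript (1 reference transcript per gene) in GENCODE 44. The first set holds some of the exons whose inclusion was higher upon SFSWAP knockdown in the siUPF1 background. Those shown for DDX41, DDX49 and DDX11 were also higher without siUPF1.
DDX23 exon 7, chr12:48837516-48837669, minus strand: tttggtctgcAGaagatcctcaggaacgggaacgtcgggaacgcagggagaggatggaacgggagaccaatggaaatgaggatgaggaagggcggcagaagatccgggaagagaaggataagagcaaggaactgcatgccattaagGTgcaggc
DDX41 exon 6, chr5:177515677-177515833, minus strand: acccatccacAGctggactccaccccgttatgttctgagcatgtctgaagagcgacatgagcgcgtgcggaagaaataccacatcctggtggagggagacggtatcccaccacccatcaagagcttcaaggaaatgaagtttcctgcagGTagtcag
DDX49 exon 7, chr19:18924221-18924316, plus strand: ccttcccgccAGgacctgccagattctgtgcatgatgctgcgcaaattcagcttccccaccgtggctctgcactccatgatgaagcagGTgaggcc
DDX11 exon 8, chr12:31089391-31089498, plus strand: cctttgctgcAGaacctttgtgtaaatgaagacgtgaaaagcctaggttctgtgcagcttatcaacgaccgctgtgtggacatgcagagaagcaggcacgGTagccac

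The second set holds some of the introns retained less upon SFSWAP knockdown, among them the introns directly next to DDX23 exon 7 and DDX41 exon 6.
DDX23 intron 7, chr12:48837394-48837523, minus strand: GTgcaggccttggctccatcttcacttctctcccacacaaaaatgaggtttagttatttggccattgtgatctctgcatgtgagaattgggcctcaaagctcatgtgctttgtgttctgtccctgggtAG
DDX41 intron 5, chr5:177515822-177515928, minus strand: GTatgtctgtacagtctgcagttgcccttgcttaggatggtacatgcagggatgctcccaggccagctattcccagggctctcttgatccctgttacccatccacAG
DDX41 intron 7, chr5:177515070-177515185, minus strand: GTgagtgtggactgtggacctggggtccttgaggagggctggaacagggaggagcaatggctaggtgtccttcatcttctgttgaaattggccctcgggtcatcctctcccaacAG
DDX49 intron 11, chr19:18927855-18927964, plus strand: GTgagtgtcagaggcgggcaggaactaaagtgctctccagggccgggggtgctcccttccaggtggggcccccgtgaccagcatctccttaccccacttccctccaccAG

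The third set runs the other way: the MANE exons called with lower inclusion in siSFSWAP than in siNT. In the siUPF1 background only the DDX27 exon was also called lower. The DDX42 exon leaned towards more inclusion there and was not called.
DDX27 exon 3, chr20:49222945-49223024, plus strand: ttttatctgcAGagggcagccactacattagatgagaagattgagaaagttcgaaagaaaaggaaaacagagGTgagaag
DDX31 exon 8, chr9:132651067-132651128, minus strand: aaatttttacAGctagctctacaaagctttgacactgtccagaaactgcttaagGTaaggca
DDX42 exon 5, chr17:63799577-63799633, plus strand: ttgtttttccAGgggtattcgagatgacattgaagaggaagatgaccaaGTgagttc

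The fourth set holds cassette exons from inside MANE introns, in which capitals also mark the first in-frame stop codon, TGA in each, when the exon is spliced between the neighbouring exons of its event. The 2 DDX50 exons share a donor site and differ in their acceptor site.
DDX50 112-nt exon in intron 1, chr10:68906214-68906345, plus strand: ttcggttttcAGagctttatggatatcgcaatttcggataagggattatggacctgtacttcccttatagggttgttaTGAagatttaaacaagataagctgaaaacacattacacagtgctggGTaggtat
DDX50 54-nt exon in intron 1, chr10:68906272-68906345, plus strand: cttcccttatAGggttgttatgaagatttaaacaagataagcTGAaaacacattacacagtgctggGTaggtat
DHX9 137-nt exon in intron 6, chr1:182855565-182855721, plus strand: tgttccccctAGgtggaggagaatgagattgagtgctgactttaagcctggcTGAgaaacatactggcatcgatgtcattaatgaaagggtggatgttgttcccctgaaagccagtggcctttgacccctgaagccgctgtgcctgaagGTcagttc

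Summed over all listed events, the libraries had 25938092 to 40637076 read counts at skipped exon events and 1812794 to 3030493 at retained intron events. A read can count at more than 1 event, so these are not numbers of sequenced reads. The knockdowns were checked on events listed for both backgrounds, in RPM of the skipped exon sum of each library. The events in that sum differ between the backgrounds, so RPM set across backgrounds are approximate. SFSWAP had 12.9 ± 2.63 RPM in siSFSWAP and 32.0 ± 1.06 in siNT, and 14.7 ± 5.25 in siSFSWAP/siUPF1 and 35.7 ± 5.26 in siNT/siUPF1 (SD, n = 3 each). The siSFSWAP/siUPF1 libraries had 9.87, 13.9 and 20.3 RPM of SFSWAP in listed order. UPF1 had 56.4, 76.2 and 102 RPM in siSFSWAP/siUPF1, against 223, 205 and 188 in siSFSWAP, and 41.3, 57.0 and 73.4 in siNT/siUPF1, against 166, 209 and 147 in siNT. The siNT/siUPF1 library listed 3rd therefore had the most UPF1 reads of its group, and so did the siSFSWAP/siUPF1 library listed 3rd. Of the 20 events called higher in siSFSWAP/siUPF1, the siNT/siUPF1 library listed 3rd had the highest inclusion level of its group at 19. Many of these events overlap and share reads, and the fits that called them used this library. They are not 20 separate observations. Values without the siNT/siUPF1 library listed 3rd are given for the calls that rest on siNT/siUPF1. Libraries are named by their place in the cells of the tables, which carry no replicate numbers.

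An event was tested if it had at least 10 inclusion and 10 skipping reads over the libraries compared, and called at an adjusted p of at most 0.05 (quasi-binomial test, dispersion moderated across all events with limma, Benjamini-Hochberg over all events). The inclusion level (retention level for an intron) is the length-corrected share of reads that hold the exon or intron, from 0 to 1. A log2 odds ratio above 0 means more inclusion in the siSFSWAP cells, or in the siUPF1 cells where those are set against siNT. Some events met the minimum of 10 skipping reads only through 1 of the groups compared. No event of 2 of the 44 genes, DDX52 and DDX58, was tested. Since exons counted as events can overlap and share reads, events of 1 gene are not independent.

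SFSWAP knockdown changed few helicase exons, mostly towards inclusion. In siSFSWAP against siNT, 22 of 219 member exon events in 38 genes were called (10.05%), 17 higher and 5 lower, beside 12% of all 33839 exon events tested. These 22 events are 16 separate exons of 11 genes. In siSFSWAP/siUPF1 against siNT/siUPF1, 24 of 222 events in 37 genes were called (10.8%), 20 higher and 4 lower, beside 7.52% of all 34006, and they are 12 separate exons of 8 genes. The median difference in inclusion level over the members tested was 0.00291 without siUPF1 and 0.00369 with it, beside 0.00424 and 0.00113 over all exons. Both shares are of the same order as those of all exons. Over all exons called, 2626 were higher and 1426 lower without siUPF1, and 1377 and 1181 with it. Limma on the log2 odds called 8 and 0 member exon events in the same comparisons, and 0 and 0 member introns.

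Every helicase intron that was called was retained less, as were most introns called over all genes. In siSFSWAP against siNT, 5 of 64 member introns in 28 genes were called, all lower, beside 10.4% of all 5845 introns, and 87.2% of those called over all introns were lower too. In siSFSWAP/siUPF1 against siNT/siUPF1, 4 of 55 in 23 genes were called, all lower, beside 3.57% of all 5105, and 72.5% of those called over all introns were lower. Over the members tested the median difference in retention level was -0.00396 without siUPF1 and -0.00275 with it, beside -0.00617 and -0.000912 over all introns. The called introns without siUPF1 were 110 to 271 nt long, with a median of 130 nt, beside a median of 110.5 nt over the member introns tested, and their median GC content was 59.6%, beside 50%.

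**Figure D1:**
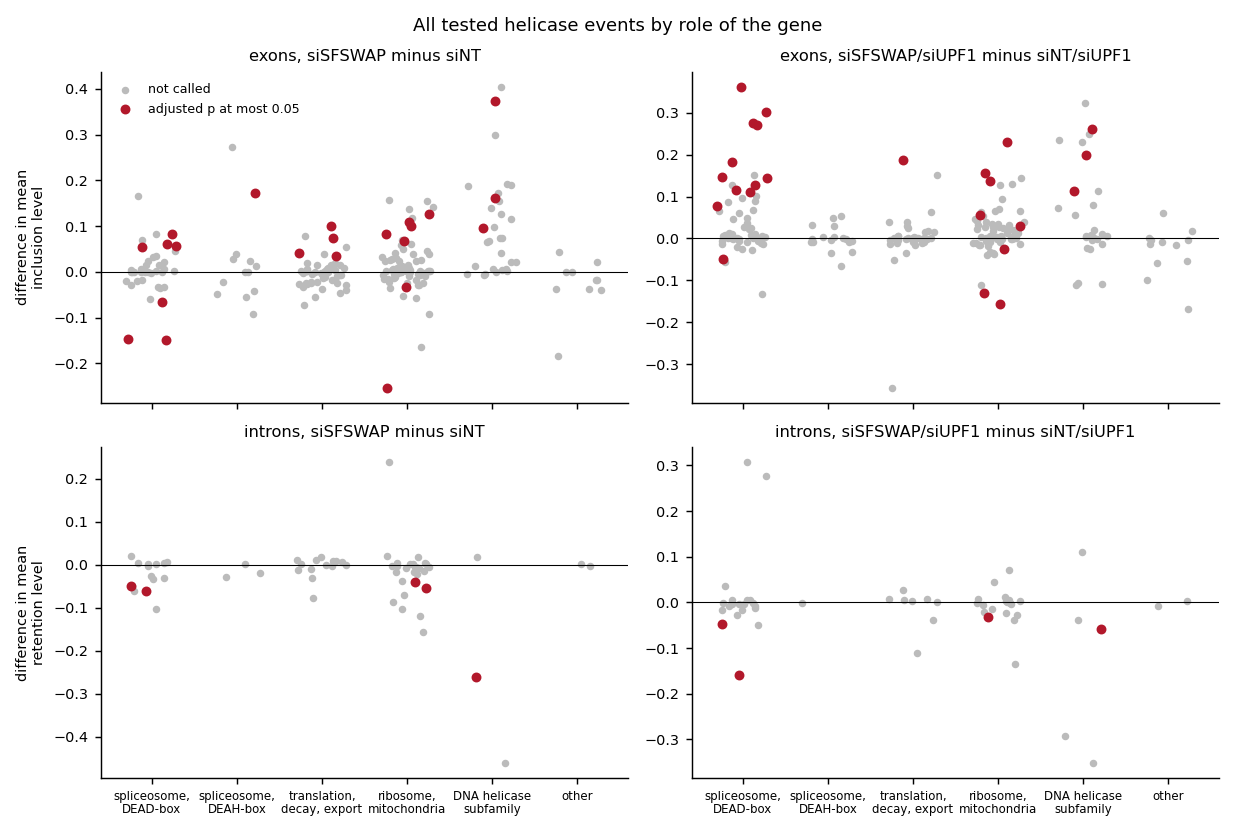
Difference in mean inclusion level (exons, top) or retention level (introns, bottom) of every tested helicase event, siSFSWAP minus siNT on the left and siSFSWAP/siUPF1 minus siNT/siUPF1 on the right, by the role of the gene; each point is 1 event and red points were called. The red points of the introns all lie below 0, and those of the exons lie mostly above it (17 of 22 and 20 of 24).

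Among the DEAD-box helicases of the spliceosome, 7 of 38 exon events were called in siSFSWAP against siNT, 4 higher and 3 lower (12% of all exons were called), and 12 of 56 in siSFSWAP/siUPF1 against siNT/siUPF1, 11 higher and 1 lower (7.52% of all exons). The 7 are 3 overlapping events over DDX42 exon 5, which are the lower ones, 3 events of DDX41 and 1 of DDX17. Limma on the log2 odds called 1 of the 38 and 0 of the 56. The 12 are overlapping events of few exons: 7 events over DDX23 exon 7, 4 over DDX41 exon 6 and 1 cassette exon of DDX46. Of their introns, 2 of 15 and 2 of 20 were called, all lower (10.4% and 3.57% of all introns). The DEAH-box helicases of the spliceosome had 1 exon of 13 called in siSFSWAP against siNT, in DHX8, 0 of 17 in the siUPF1 background, and none of 3 and 1 introns. At an unadjusted p under 0.05 these zeros became 0 exons with siUPF1 and 1 and 0 introns, and limma on the log2 odds called 0 in each.

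DDX23 exon 7, of 134 nt, had inclusion levels of 0.988, 0.996 and 0.984 in siSFSWAP/siUPF1, against 0.912, 0.861 and 0.963 in siNT/siUPF1. The groups did not overlap, and skipping reads were 16 of 3569 against 128 of 3238. The log2 odds ratio was 3.19 ± 0.67 (SE; adjusted p = 7.4e-06, quasi-binomial test) and 3.63 without the siNT/siUPF1 library listed 3rd (adjusted p = 1.3e-06). Without UPF1 siRNA the levels were 0.988, 0.990 and 0.991 in siSFSWAP, against 0.981, 0.982 and 0.960 in siNT, with a log2 odds ratio of 1.36 ± 0.65 that was not called (adjusted p = 0.16). The exon's length is not a multiple of 3, and when it is skipped a stop codon follows in the next exon of the reading frame.

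The adjacent DDX23 intron 7, of 130 nt, was retained less in both backgrounds. Its retention levels were 0.0393, 0.0232 and 0.0573 in siSFSWAP, against 0.102, 0.0798 and 0.0854 in siNT, and 0.0395, 0.0486 and 0.0455 in siSFSWAP/siUPF1, against 0.0805, 0.103 and 0.0920 in siNT/siUPF1. Neither pair of groups overlapped. The log2 odds ratios were -1.20 ± 0.28 (SE; adjusted p = 0.0044, quasi-binomial test) and -1.12 ± 0.23 (adjusted p = 0.0041; 0.0033 without the siNT/siUPF1 library listed 3rd). Without the siSFSWAP library listed 2nd the first of these had an adjusted p of 0.052. Reads over the junction between exons 7 and 8 count as skipping for the intron and as inclusion for the exon, so the exon and intron results share reads.

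DDX41, a helicase of the catalytic spliceosome whose gene is mutated in inherited myeloid neoplasms, moved in the same pattern at its exon 6. The inclusion level of this 137-nt exon, at the event with the most reads, was 1.00, 1.00 and 0.978 in siSFSWAP, against 0.911, 0.987 and 0.830 in siNT (log2 odds ratio 3.69 ± 1.27, SE; adjusted p = 0.0074, quasi-binomial test), and the groups overlapped. It was 0.993, 0.973 and 0.995 in siSFSWAP/siUPF1, against 0.849, 0.738 and 0.935 in siNT/siUPF1, without overlap (3.90 ± 1.07, adjusted p = 0.00014; 1.8e-05 without the siNT/siUPF1 library listed 3rd). Skipping reads were 4 of 1436 in siSFSWAP and 27 of 775 in siNT, and 6 of 1205 in siSFSWAP/siUPF1 and 77 of 1109 in siNT/siUPF1. Dropping the 1st siSFSWAP library (adjusted p = 0.051), the 2nd (0.10) or the 3rd siNT library (0.16) ended the call in siSFSWAP against siNT.

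Further along the gene, DDX41 exon 12, of 72 nt, had no skipping read among 586 reads in siSFSWAP, which allows a skipping share of up to 0.512% of reads, against 6, 3 and 6 skipping reads in the siNT libraries of 453 reads in all. Its levels were thus 1.00 in each siSFSWAP library and 0.931, 0.969 and 0.929 in siNT (adjusted p = 0.018, quasi-binomial test; up to 0.075 and not called without any 1 of the siSFSWAP libraries). All skipping reads came from siNT, so the exon met the minimum of 10 skipping reads only through that group. Without the siNT library listed 1st or 3rd it fell below that minimum and was not tested. In siSFSWAP/siUPF1 there was again no skipping read, among 429, and the siNT/siUPF1 levels were 0.915, 0.958 and 0.981, but the event was not called there (adjusted p = 0.10).

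Of the DDX41 intron events tested, 1 of 5 was called in siSFSWAP against siNT, at intron 7, and 1 of 8 in the siUPF1 background, at intron 5, directly before exon 6. The event called at each intron was listed for 1 background only and was not tested in the other comparison. Reads over the junction between exons 5 and 6 can count as skipping for intron 5 and as inclusion for exon 6, so those results can share reads. Intron 5, of 107 nt, had levels of 0.0361, 0.0652 and 0.0627 in siSFSWAP/siUPF1, against 0.176, 0.282 and 0.180 in siNT/siUPF1 (log2 odds ratio -2.23 ± 0.38, SE; adjusted p = 0.00035, quasi-binomial test). Intron 7, of 116 nt, had 0.00899, 0.010 and 0.00882 in siSFSWAP, against 0.0961, 0.0427 and 0.0729 in siNT (-2.90 ± 0.67, adjusted p = 0.0011). Both introns had groups that did not overlap, and both were called in all 6 fits that left out 1 library, with adjusted p of up to 0.0088 and 0.0099 (intron 5: log2 odds ratio -2.44, adjusted p = 3.8e-06 without the siNT/siUPF1 library listed 3rd).

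**Figure D2:**
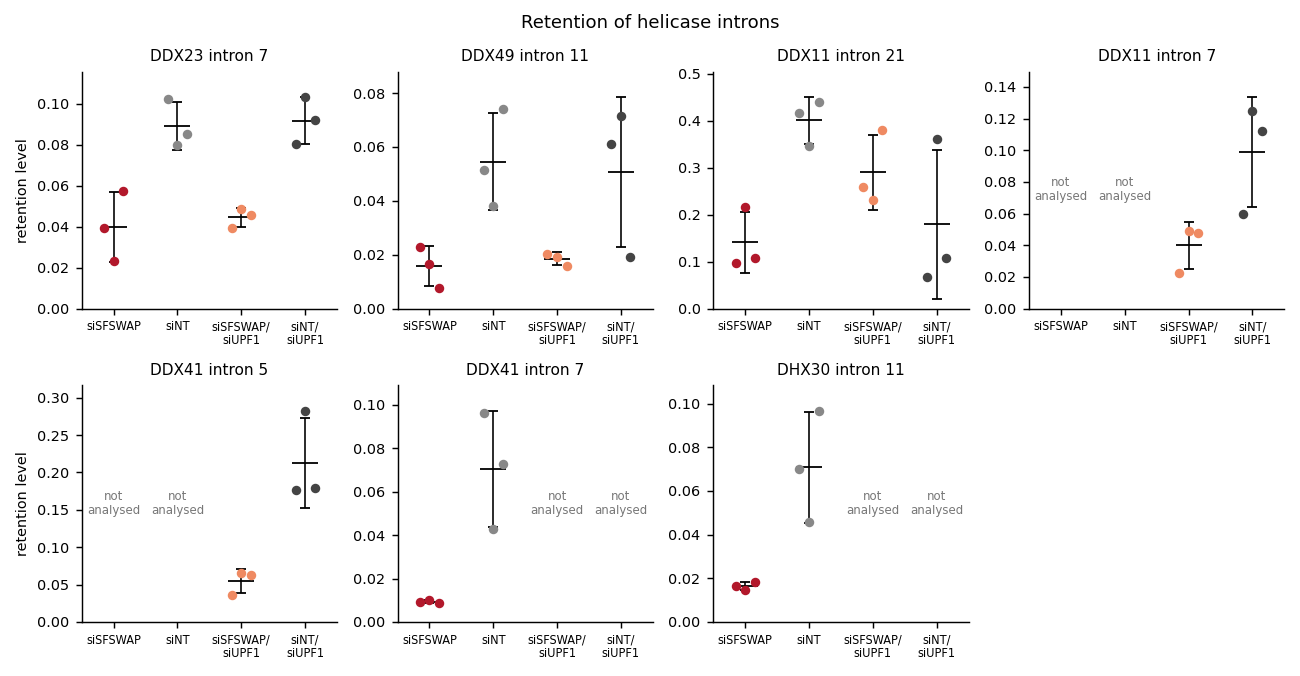
Retention level (vertical axes from 0, scaled per intron) of the 7 helicase introns called in either SFSWAP comparison; each point is 1 library in its listed order, with the mean and SD of 3 libraries. In DDX23 intron 7 all siSFSWAP libraries of both backgrounds lie at 0.0573 or below and all their controls at 0.0798 or above, whereas the groups of DDX11 intron 21 are apart in siSFSWAP and siNT and overlap with siUPF1.

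DDX42, which is associated with the U2 snRNP, had an exon with lower inclusion in siSFSWAP than in siNT. This exon 5, of 37 nt, had inclusion levels of 0.840, 0.862 and 0.857 in siSFSWAP, against 0.915, 0.923 and 0.919 in siNT, with no overlap (log2 odds ratio -0.96 ± 0.30, SE; adjusted p = 0.024, quasi-binomial test). Leaving out any siSFSWAP library, or the siNT library listed 2nd or 3rd, ended the call (adjusted p of up to 0.085). In the siUPF1 background its levels were 0.804, 0.771 and 0.910 in siSFSWAP/siUPF1, against 0.709, 0.721 and 0.915 in siNT/siUPF1, and the groups overlapped (log2 odds ratio 0.52 ± 0.29, adjusted p = 0.29). Without the siNT/siUPF1 library listed 3rd it was called higher there (1.00, adjusted p = 0.0088). The difference between the 2 effects was 1.48 ± 0.54 and was not called (adjusted p = 0.99). It was called in the fit without the siNT/siUPF1 library listed 3rd, with an adjusted p of 0.021.

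The deepest events of DDX5, DHX38 and DHX15 were not called. DDX5 exon 12 had levels of 0.976, 0.983 and 0.920 in siSFSWAP, against 0.993, 0.962 and 0.979 in siNT (adjusted p = 0.11, quasi-binomial test; 0.038 without the siNT library listed 2nd). DHX38 exon 4 stood at 0.989, 0.990 and 0.997 in siSFSWAP, against 0.971, 0.981 and 0.988 in siNT, where the groups did not overlap but the adjusted p was 0.40. DHX15 exon 13, tested in the siUPF1 background, was at 1.00, 1.00 and 0.983 in siSFSWAP/siUPF1, against 0.997, 1.00 and 1.00 in siNT/siUPF1 (adjusted p = 0.30).

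DHX8, the DEAH-box helicase that releases spliced mRNA, had 1 exon called. Its exon 20, of 129 nt and in frame, had levels of 1.00, 0.976 and 0.954 in siSFSWAP, against 0.721, 0.862 and 0.832 in siNT, with 3 skipping reads of 248 against 37 of 404 (log2 odds ratio 3.04 ± 1.34, SE; adjusted p = 0.037, quasi-binomial test). The call was lost without any of the siSFSWAP libraries or without the siNT library listed 1st (adjusted p of 0.087 to 0.15). With UPF1 siRNA the same exon was at 0.970, 0.870 and 0.929 in siSFSWAP/siUPF1, against 0.878, 0.915 and 0.888 in siNT/siUPF1, and those groups overlapped (adjusted p = 0.86). The difference between the effects, of -2.62 ± 1.48, was not called (adjusted p = 0.99).

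**Figure D3:**
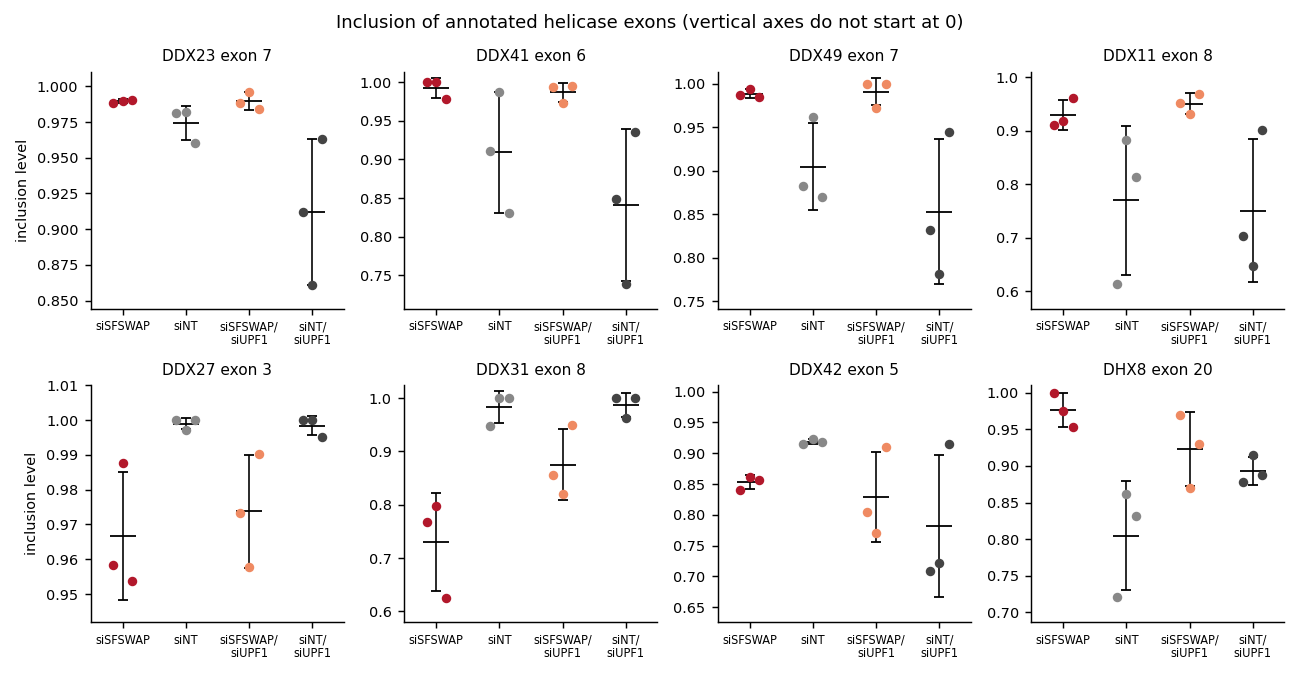
Inclusion level of 8 MANE exons of helicase genes in the 4 groups; each point is 1 library in its listed order, with the mean and SD of 3 libraries, and the vertical axes are cropped to each exon's range. DDX23 exon 7, DDX41 exon 6, DDX49 exon 7 and DDX11 exon 8 sit higher upon SFSWAP knockdown, while DDX27 exon 3 sits at 0.954 to 0.990 in the siSFSWAP libraries of both backgrounds and at 0.995 or more in their controls.

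The helicases of ribosome biogenesis and mitochondrial RNA had 7 of 75 exon events called in siSFSWAP against siNT, 5 higher and 2 lower, and 8 of 71 in the siUPF1 background, 5 higher and 3 lower (9.33% and 11.3%, beside 12% and 7.52% of all exons). DDX49, a nucleolar helicase, accounted for 5 of the higher calls in that background, at its exons 3, 7, 9 and 10. Exon 7, of 76 nt, was called in both: it had levels of 0.987, 0.995 and 0.984 in siSFSWAP, against 0.883, 0.962 and 0.870 in siNT (log2 odds ratio 3.17 ± 0.98, SE; adjusted p = 0.0034, quasi-binomial test), and 1.00, 0.973 and 1.00 in siSFSWAP/siUPF1, against 0.832, 0.781 and 0.944 in siNT/siUPF1 (4.04 ± 1.26, adjusted p = 0.00051; 4.53 and 9.9e-05 without the siNT/siUPF1 library listed 3rd). Neither pair overlapped. As in DDX23, skipping this exon shifts the frame and meets a stop codon in the next exon.

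DDX49 exon 3, of 86 nt, showed the widest gap of the 4, with 0.970, 1.00 and 0.95 in siSFSWAP/siUPF1, against 0.687, 0.619 and 0.923 in siNT/siUPF1 (adjusted p = 0.012, quasi-binomial test; 0.0016 without the siNT/siUPF1 library listed 3rd). Its call was lost without any siSFSWAP/siUPF1 library or the siNT/siUPF1 library listed 2nd, with an adjusted p of up to 0.22. DDX49 intron 11, of 110 nt, was retained at 0.0228, 0.0167 and 0.00780 in siSFSWAP, against 0.0515, 0.0382 and 0.0740 in siNT (log2 odds ratio -1.81 ± 0.36, SE; adjusted p = 0.00063). Its levels in the siUPF1 background were 0.0204, 0.0191 and 0.0157 in siSFSWAP/siUPF1, against 0.0611, 0.0716 and 0.0191 in siNT/siUPF1 (-1.57 ± 0.41, adjusted p = 0.017). There the siNT/siUPF1 library listed 3rd lay within the range of the siSFSWAP/siUPF1 libraries; without it the adjusted p was 6.6e-07, and leaving out any other library of the 2 groups ended the call (0.076 to 0.14).

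DDX27, which is needed to make the large ribosomal subunit, had the lowest adjusted p of the members in siSFSWAP against siNT. Its exon 3, of 60 nt and so frame-keeping, was included almost without exception in controls and was skipped in part upon SFSWAP knockdown. Skipping reads were 24, 7 and 32 in siSFSWAP, of 2913 reads, against 0, 2 and 0 in siNT, of 3765 reads. The levels were 0.958, 0.988 and 0.954 in siSFSWAP and 1.00, 0.997 and 1.00 in siNT (log2 odds ratio -5.38 ± 1.64, SE; adjusted p = 5.7e-06, quasi-binomial test, and at most 0.0016 in the 6 fits that left out 1 library).

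The same exon gave 13, 26 and 6 skipping reads in siSFSWAP/siUPF1, against 0, 0 and 3 in siNT/siUPF1, with levels of 0.973, 0.958 and 0.990 against 1.00, 1.00 and 0.995 (log2 odds ratio -4.18 ± 1.44, SE; adjusted p = 0.0019, quasi-binomial test). This call was lost without the siSFSWAP/siUPF1 library listed 2nd (adjusted p = 0.081), and the ratio was -6.24 without the siNT/siUPF1 library listed 3rd, which held all 3 skipping reads of its group (0.0020). The 2 backgrounds share no library. A 93-nt exon inside DDX27 intron 9 was included more in siSFSWAP, at 0.149, 0.106 and 0.220, against 0.0631, 0.0373 and 0.0731 in siNT (log2 odds ratio 1.59 ± 0.41, adjusted p = 0.0035; 0.082 without the siSFSWAP library listed 3rd).

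DDX31, another nucleolar helicase, had 1 exon lower and 1 higher in siSFSWAP against siNT. Its 42-nt exon 8, also frame-keeping, stood at 0.767, 0.797 and 0.625 in siSFSWAP, against 0.948, 1.00 and 1.00 in siNT (log2 odds ratio -4.18 ± 1.39, SE; adjusted p = 0.0042, quasi-binomial test), from 117 and 226 reads. In the siUPF1 background the levels were 0.856, 0.820 and 0.95 in siSFSWAP/siUPF1, against 1.00, 0.962 and 1.00 in siNT/siUPF1, without overlap but not called (adjusted p = 0.17). A 256-nt cassette exon in DDX31 intron 6, with a stop codon inside it, was at 0.0710, 0.134 and 0.0798 in siSFSWAP, against 0.0345, 0.0185 and 0.0295 in siNT (1.81 ± 0.56, adjusted p = 0.016; 0.13 without the siSFSWAP library listed 2nd).

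Exon 3 of DDX55, which acts on the large subunit, had no skipping read in siSFSWAP among 358 reads. A skipping share of up to 0.838% is allowed there. The siNT libraries had 9, 2 and 6 skipping reads among 299 reads in all (adjusted p = 0.015, quasi-binomial test). The exon was not called without any 1 of the siSFSWAP libraries (adjusted p of up to 0.079). All skipping reads came from siNT, so the exon met the minimum of skipping reads only through that group. Without the siNT library that held 9 of them it fell below that minimum. In the siUPF1 background it was below the minimum and not tested, with no skipping read in siSFSWAP/siUPF1 and 9 in siNT/siUPF1. Intron 11 of DHX30, a helicase of mitochondrial RNA granules, was retained at 0.0166, 0.0149 and 0.0182 in siSFSWAP, against 0.0700, 0.0455 and 0.0967 in siNT (log2 odds ratio -2.10 ± 0.54, SE; adjusted p = 0.0044). It was called in each of the 6 fits that left out 1 library.

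Helicases of translation, mRNA decay and export had 4 of 53 exon events called in siSFSWAP against siNT, all higher, and 1 of 39 in the siUPF1 background (7.55% and 2.56%, beside 12% and 7.52% of all exons). DHX34, an NMD factor, had 3 overlapping versions of exon 16 called, at which no siSFSWAP library had a skipping read; at the annotated version the siNT libraries had 9, 0 and 9 of 934 reads in all (adjusted p = 0.025, quasi-binomial test) and the groups overlapped. Leaving out any siSFSWAP library ended that call (0.085 to 0.12). Exon 2 of DDX19B, which releases mRNA at the nuclear pore, was at 1.00, 0.952 and 0.884 in siSFSWAP/siUPF1, against 0.810, 0.623 and 0.843 in siNT/siUPF1 (2.13 ± 0.76 on the log2 odds scale, SE; adjusted p = 0.036). That call was lost without any siSFSWAP/siUPF1 library or the siNT/siUPF1 library listed 2nd (adjusted p of up to 0.35), and the ratio was 2.46 without the one listed 3rd (0.016). DDX19A is a close paralog, so reads of the pair may have been shared in alignment.

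DHX9, or RNA helicase A, carries a predicted decoy exon: a cassette exon inside a retained intron that the study added to the annotation before alignment. This 137-nt exon in intron 6 was included at 0.0827, 0.0835 and 0.118 in siSFSWAP, against 0.0511, 0.0630 and 0.0643 in siNT, without overlap (log2 odds ratio 0.71 ± 0.18, SE; adjusted p = 0.0031, quasi-binomial test; 0.13 without the siSFSWAP library listed 3rd). With UPF1 siRNA the levels overlapped, at 0.0519, 0.119 and 0.0750 in siSFSWAP/siUPF1 and 0.0476, 0.0953 and 0.0602 in siNT/siUPF1 (adjusted p = 0.45). Over the 10 tested member events on the list of predicted decoys, 3 were called in siSFSWAP against siNT, all higher (12% of all exons were called), and 0 of 14 in the siUPF1 background (2 at an unadjusted p under 0.05, and 0 by limma on the log2 odds). The other 2 were a 236-nt exon in DDX17 intron 11, whose groups overlapped (0.237, 0.252 and 0.290 in siSFSWAP, against 0.185, 0.136 and 0.275 in siNT; adjusted p = 0.015, up to 0.61 and not called without the siSFSWAP library listed 2nd or 3rd or the siNT library listed 2nd), and exon 21 of DDX11, which the MANE transcript holds. DDX11 exon 21 was at 0.985, 1.00 and 1.00 in siSFSWAP, against 0.935, 0.863 and 0.901 in siNT (adjusted p = 0.042), and was not called in any of the 4 fits without 1 library in which it was tested, those without any 1 siSFSWAP library or the siNT library listed 1st (0.056 to 0.13). Reads within such an exon can also come from an intron retained around it, since reads inside the exon were counted.

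DDX11, a DNA helicase of sister chromatid cohesion that belongs to the family by name and motif, has a near-identical copy, DDX12P, so reads of the pair cannot be told apart with certainty and its values are uncertain. Exon 8, of 88 nt, was at 0.910, 0.918 and 0.962 in siSFSWAP, against 0.614, 0.883 and 0.813 in siNT (log2 odds ratio 1.91 ± 0.64, SE; adjusted p = 0.028, quasi-binomial test), and at 0.952, 0.931 and 0.969 in siSFSWAP/siUPF1, against 0.703, 0.647 and 0.901 in siNT/siUPF1 (2.75 ± 0.70, adjusted p = 0.00062; 3.23 and 6.1e-05 without the siNT/siUPF1 library listed 3rd). The first call was lost without any siSFSWAP library or the siNT library listed 1st (adjusted p of up to 0.22), and the second without the siNT/siUPF1 library listed 2nd (0.053). Intron 7, directly before it, was retained at 0.0227, 0.0493 and 0.0475 in siSFSWAP/siUPF1, against 0.0598, 0.125 and 0.112 in siNT/siUPF1 (-1.44 ± 0.37, adjusted p = 0.020; 0.018 without the siNT/siUPF1 library listed 3rd; up to 0.12 in the fits that left out 1 library, where it was lost without any siSFSWAP/siUPF1 library or the siNT/siUPF1 library listed 2nd). Intron 21 was lower without UPF1 siRNA, at 0.0977, 0.216 and 0.108 in siSFSWAP, against 0.416, 0.346 and 0.441 in siNT (-2.11 ± 0.56, adjusted p = 0.010; 0.053 to 0.060 without the siSFSWAP library listed 1st or 3rd or the siNT library listed 3rd). The siSFSWAP and siNT values of intron 21 rest on 132 reads per group. In the siUPF1 background intron 21 had 0.260, 0.231 and 0.381 in siSFSWAP/siUPF1, against 0.0677, 0.362 and 0.108 in siNT/siUPF1, which overlapped (adjusted p = 0.64). The difference of its 2 effects was not called (2.93 ± 0.87, adjusted p = 0.91). Reads over the junction between exons 7 and 8 can count as skipping for intron 7 and as inclusion for exon 8, so those results can share reads. The same holds for intron 21 and exon 21 directly before it.

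Side by side, 144 exon events were tested in both SFSWAP comparisons, and 4 were called in both, each in the same direction: DDX11 exon 8, DDX41 exon 6 and DDX49 exon 7 higher, and DDX27 exon 3 lower. They are 28.6% of the 14 events called without siUPF1 and 26.7% of the 15 called with it that were tested in both, beside 40.4% and 58% over all exons. Of 24 introns tested in both, 2 were called in both, DDX23 intron 7 and DDX49 intron 11, of the 3 called without siUPF1 and the 2 called with it that were tested in both, beside overlaps of 25.6% and 66.7% over all introns. No member was called for a difference of the SFSWAP effect between backgrounds, with 0 of 274 exon events (11 at an unadjusted p under 0.05) and 0 of 26 introns (3 under 0.05), beside 0.00771% and 0.0291% over all events; limma on the log2 odds gave 0 for both as well.

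UPF1 knockdown was compared at events listed with the same coordinates for both backgrounds. The libraries with and without UPF1 siRNA were counted separately. The paper does not state whether both sets were prepared together, or whether siNT cells received a matching extra amount of non-target siRNA. An effect of UPF1 knockdown cannot be told apart from such differences between the sets. In siNT/siUPF1 against siNT, 9 of 189 member exon events were called (4.76%; 0 by limma on the log2 odds), 4 higher and 5 lower, beside 1.17% of all 28261. These 9 events are 4 separate exons in DDX50, DDX42 and DDX23. None of 22 member introns was called (2 at an unadjusted p under 0.05, and 0 by limma on the log2 odds), beside 0.0659%. The 4 higher events were all exons inside intron 1 of DDX50, a nucleolar paralog of DDX21, and each holds a stop codon. An in-frame stop codon was found inside 5 of the 9 events called and 68 of the 189 tested.

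The 54-nt DDX50 exon was included at 0.275, 0.360 and 0.182 in siNT/siUPF1, against 0.00503, 0.0406 and 0.0875 in siNT (log2 odds ratio 3.08 ± 0.57, SE; adjusted p = 7.8e-05, quasi-binomial test). The 112-nt version, which contains it, had 0.361, 0.441 and 0.281 in siNT/siUPF1, against 0.0715, 0.0578 and 0.145 in siNT (2.57 ± 0.37, adjusted p = 5.0e-06). Neither pair overlapped, and both calls held in every fit that left out 1 library (3.43 and 2.85 without the siNT/siUPF1 library listed 3rd, adjusted p = 3.5e-08 and 3.9e-10). The 2 versions have the same skipping reads and are 1 measurement of skipping.

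Both DDX50 exons were lower upon SFSWAP knockdown in the siUPF1 background, a comparison that shares the siNT/siUPF1 libraries with the one just given. The 54-nt exon fell to 0.147, 0.128 and 0.0731 in siSFSWAP/siUPF1, against the 0.275, 0.360 and 0.182 of siNT/siUPF1 (log2 odds ratio -1.56 ± 0.39, SE; adjusted p = 0.0026, quasi-binomial test), and the 112-nt exon to 0.216, 0.262 and 0.213, against 0.361, 0.441 and 0.281 (-0.92 ± 0.27, adjusted p = 0.019). Without the siNT/siUPF1 library listed 2nd neither was called (adjusted p = 0.085 and 0.26), nor without the siSFSWAP/siUPF1 library listed 3rd (0.085 and 0.15), and the 112-nt exon was not called without the one listed 1st (0.10). Without the siNT/siUPF1 library listed 3rd the ratios were -1.91 and -1.20 (adjusted p = 0.00043 and 0.0028). Without UPF1 siRNA the 54-nt exon was at 0.104, 0.0408 and 0.105 in siSFSWAP, against 0.00503, 0.0406 and 0.0875 in siNT (1.01 ± 0.56, adjusted p = 0.24). The difference of these effects was -2.57 ± 0.72 (adjusted p = 0.89).

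A 117-nt exon in intron 12 of DDX46, with a stop codon inside it, was likewise lower in siSFSWAP/siUPF1, at 0.0318, 0.0296 and 0.0141, against 0.0322, 0.126 and 0.0622 in siNT/siUPF1 (log2 odds ratio -1.56 ± 0.50, SE; adjusted p = 0.032, quasi-binomial test). Its call was lost without any siSFSWAP/siUPF1 library (0.087 to 0.18) or without the siNT/siUPF1 library listed 2nd (0.48). Dropping the one listed 3rd gave a ratio of -1.65 (0.041). The siNT/siUPF1 library listed 1st was almost level with the highest siSFSWAP/siUPF1 library.

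**Figure D4:**
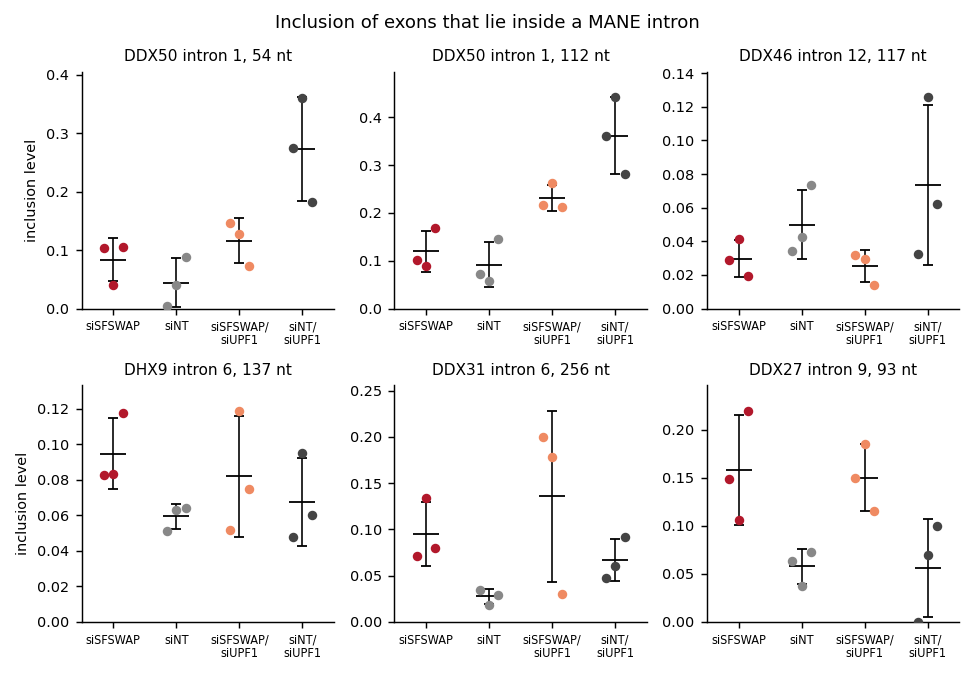
Inclusion level (vertical axes from 0, scaled per exon) of 6 exons inside MANE introns of helicase genes; each point is 1 library in its listed order, with the mean and SD of 3 libraries. The DDX50 exons are highest in siNT/siUPF1 (0.182 to 0.360 for the 54-nt version), and the DHX9 exon separates siSFSWAP from siNT without siUPF1.

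The 5 lower events with UPF1 siRNA lay at exon 5 of DDX42 and exon 7 of DDX23. DDX42 exon 5 fell to 0.709, 0.721 and 0.915 in siNT/siUPF1, against 0.915, 0.923 and 0.919 in siNT (log2 odds ratio -1.71 ± 0.36, SE; adjusted p = 0.0029, quasi-binomial test). The siNT/siUPF1 library listed 3rd had the same level, to 3 digits, as the lowest siNT library, and without it the ratio was -2.18 (adjusted p = 9.4e-10). DDX23 exon 7 stood at 0.912, 0.861 and 0.963 in siNT/siUPF1, against 0.981, 0.982 and 0.960 in siNT (-1.85 ± 0.54, adjusted p = 0.043; -2.29 and 0.00031 without that library). Its call was lost without the siNT/siUPF1 library listed 1st (0.087) or 2nd (0.39), or the siNT library listed 1st (0.20) or 2nd (0.14). The same siNT/siUPF1 libraries entered the SFSWAP comparison of DDX23 exon 7 given above, so its calls in these comparisons are not independent. At all 5 lower events the library listed 3rd was the highest of the siNT/siUPF1 libraries, and at all 4 DDX50 events it was the lowest. The lower events of each exon share their skipping reads, and so do all 4 DDX50 events, so they do not count separately. These events were also called in fits that used this library, and the part of its UPF1 level in these values was not tested. The skipped forms of DDX42 exon 5 and DDX23 exon 7 meet a stop codon in the following exon.

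In siSFSWAP/siUPF1 against siSFSWAP no member was called, 0 of 156 exon events (7 at an unadjusted p under 0.05) and 0 of 23 introns (2 under 0.05), beside 0.0816% and 0.166% over all events, and limma gave 0 for both. The 112-nt DDX50 exon was at 0.216, 0.262 and 0.213 in siSFSWAP/siUPF1, against 0.101, 0.0899 and 0.169 in siSFSWAP, with an adjusted p of 0.11, and was called without the siSFSWAP library listed 3rd (0.016).

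Further lists were counted for comparison. Of RNA helicases outside the family by name, 6 of 73 exon events in 15 genes were called in siSFSWAP against siNT and 6 of 78 in the siUPF1 background (8.22% and 7.69%, beside 12% and 7.52% of all exons), and 2 of 20 and 0 of 19 introns by the quasi-binomial test (4 of the 19 at an unadjusted p under 0.05; limma calls were not counted for this list). Of G-patch proteins, the partners that switch on DEAH-box helicases, 6 of 64 and 5 of 65 exon events (9.38% and 7.69%) and 3 of 22 and 2 of 21 introns were called, the introns all lower. No difference between these lists and the members was tested.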

How the data were processed

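Inclusion and skipping read counts, deposited by the authors as 1 comma-joined cell per group and event, came from poly(A) RNA of 12 libraries. Per the labels and methods, the authors trimmed single-end reads with cutadapt 1.9.1, aligned them with STAR 2.7 to GRCh38.p8 with predicted decoy exons added to the annotation, and counted junction and exon body reads with rMATS. Inclusion levels as fractions were recomputed here from the counts and effective lengths. The deposited p-values, FDR and level differences are the authors' own comparisons and were not used. Events whose reads averaged 10 or more over the libraries, with no fewer than 10 inclusion and 10 skipping reads in total, were fitted by quasi-binomial regression over all events of a kind, with dispersion moderated by limma 3.58.1 (R 4.3.3) and floored at 1, Benjamini-Hochberg adjustment and a threshold of 0.05. Tables were read with Python 3.11.15, and the test was tried on simulated data. Exons were placed on GENCODE 44. Members and lists were chosen with earlier results of these data known. Named events were the up to 6 called with the lowest adjusted p per comparison, kind and direction, 1 event per exon and at most 2 per gene, 1 event of each kind per spliceosomal helicase and for DDX3X, DHX9 and DHX34, and tested predicted decoys; other events named were chosen after their values were seen. Intervals from 0 skipping reads (3 counts) cover counting error only, since reads carry no molecular identifiers. The side of each cell that held each group followed the methods, and the replicates are biological triplicates whose order in the cells is not tied to replicate numbers.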

Additional observations from a re-analysis of the deposited data

How the results depend on the processing

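No paired analysis was possible because the tables do not tie a value to a replicate number. The planned paired-column count model was not run, since the joined cells could not be read as count columns. The tests lean on sharing the spread between events and on the read filter. With each event's own dispersion, 0 members were called in siSFSWAP against siNT (22 exons and 5 introns in the main test), 0 in siSFSWAP/siUPF1 against siNT/siUPF1 (24 and 4) and 0 exons in siNT/siUPF1 against siNT (9). Without a read filter the exon counts were 0, 0 and 1 and the intron counts 0 and 0. Limma on the log2 odds called 8, 0 and 0 exons with a pseudocount of 0.5, and 7, 1 and 0 with 1, and 0 introns with both. A level difference of at least 0.2 left 2, 7 and 3 exons and 1 and 0 introns, and a mean of at least 30 reads left 5 exons in siNT/siUPF1 against siNT. The causes were not tested.

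Leaving out each library in turn gave 5 to 25 exons and 4 to 11 introns in siSFSWAP against siNT, 13 to 30 and 2 to 5 in siSFSWAP/siUPF1 against siNT/siUPF1, and 4 to 12 exons in siNT/siUPF1 against siNT. It gave 0 to 1 exons in siSFSWAP/siUPF1 against siSFSWAP and 0 to 2 for the difference of effects. The exon count without siUPF1 was lowest without the siSFSWAP libraries (9, 5 and 7 in listed order) and was 11 without the 1st siNT library. In the siUPF1 background 15 were called without the 1st or the 3rd siSFSWAP/siUPF1 library, 13 without the 2nd siNT/siUPF1 library and 30 without the 3rd. Introns numbered 11 without the 2nd siNT library, and 2 without any siSFSWAP/siUPF1 library or the 2nd siNT/siUPF1 library. For siNT/siUPF1 against siNT, 5 exons were called without the 1st siNT/siUPF1 library, 4 without the 2nd or without the 1st or 2nd siNT library, and 12 without the 3rd siNT/siUPF1 library. Of 43 named calls, 42 kept their side of the threshold with 1 event per exon, 42 with a dispersion trend, 43 with no floor, 40 with at least 30 reads and 4 with limma; of 253 fits that left out a library, 187 did and 66 did not. No direction reversed.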
